A study of Mus musculus with 2 samples.

Results

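The nuclear-encoded subunits of oxidative phosphorylation were followed through the cell types of the healing mouse tendon. Members were taken by gene symbol, without use of any measured value: names starting Nduf with a letter a, b, c, s or v and a number, the 4 Sdh genes, all Uqcr and Atp5 genes, and the Cox subunits numbered from 4 to 8, leaving out assembly factors and pseudogenes. This gave 84 of the 32285 features in the files: 37 of complex I, 4 of complex II, 8 of complex III, 18 of complex IV and 17 of ATP synthase. Symbols are those of the files, so Ndufa4 and its relative Ndufa4l2 are counted under complex I by name, although the Ndufa4 protein is known as a complex IV subunit.

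Tissue came from the injured tendon of mice aged 12 weeks, 14 days after surgery. One library was made from TrkA WT mice (titled Control) and the other from TrkA F592A mice (titled INMPP1), and each pooled 3 animals. TrkA is the nerve growth factor receptor kinase, and the F592A change makes it sensitive to bulky PP1-type inhibitors, 1 of which is named in the title of the second library. The sources used here give neither the dose of inhibitor nor whether the WT mice received it, so genotype, inhibitor and library preparation cannot be told apart. A point mutation leaves no trace in gene counts, so the counts do not check the genotype labels. With 1 library per genotype there is no biological replicate and no test between genotypes. The 95% intervals given below are exact, cover counting error only and say nothing of differences between mice.

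Oxidative phosphorylation passes electrons from NADH through complex I, or from succinate through complex II, to complex III and complex IV. Complexes I, III and IV pump protons, and ATP synthase, also called complex V, uses the resulting gradient to make ATP. Complexes I, III, IV and ATP synthase combine catalytic and membrane subunits with many small accessory proteins. A few of their subunits are encoded in mitochondrial DNA and all others, as well as all of complex II, in the nucleus. Resident tendon cells live with little blood supply and are known for a glycolytic metabolism, while the vessels, phagocytes and dividing cells of a healing wound differ in their mitochondrial demand.

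Filtering left 11257 cells of the WT library and 8444 of the F592A library. Their median depth was 15870 and 17887 UMIs (unique molecular identifiers, each a tag for 1 captured RNA molecule). Cells were gated by marker genes into 8 classes. Stromal cells (6513 WT and 4705 F592A), macrophages (2311 and 1533), endothelial cells (472 and 532) and mural cells of vessel walls (533 and 565) were the 4 main classes. Lymphatic endothelial, dendritic, neutrophil and T or NK cells held 71 to 169 cells per library. In each class all defining markers were detected in both libraries. As the cells were gated by these same markers, this follows largely from the gates and is no check of the classes. The dendritic gate asked for only 2 of 7 markers, and 64 of 134 WT and 59 of 122 F592A dendritic cells just met it. The libraries shared 764 cell barcodes, and 1.14% of the kept cells carried one of them. They also differed in measures that are not about any pathway. Gm42418, a gene model that overlaps ribosomal RNA, took 34777 of every 1000000 stromal UMIs in WT and 86794 in F592A (written below as CPM, always WT first), and was also higher in F592A in the other 3 main classes. Lars2 was at 643 and 1367 CPM, and Malat1, a nuclear RNA often used as a sign of RNA quality, at 15251 and 20654 CPM in stromal cells. Cycling cells made up 5.93% of WT and 2.87% of F592A stromal cells. The part of these in the results below was not tested, except where values without Gm42418 or without cycling cells are given.

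Summed over all 84 members, the subunits took a similar share of the transcriptome in both libraries in stromal cells and macrophages. In stromal cells they held 1.53% of UMIs in WT and 1.52% in F592A, a log2 ratio of F592A over WT of -0.01 (interval -0.01 to -0.01). In macrophages the shares were 1.33% and 1.36%, a log2 ratio of 0.02. Endothelial cells went from 1.51% to 1.37% (log2 ratio -0.14, interval -0.15 to -0.13) and mural cells from 1.83% to 1.73% (-0.08, interval -0.09 to -0.07). Mural cells, the contractile cells around capillaries and arterioles, thus held the highest share of the 8 classes in both libraries, at 18327 and 17328 CPM. Next came T or NK cells in WT (17472 CPM) and dendritic cells in F592A (16771 CPM). Ndufa4l2 (761 and 522 CPM in mural cells) and Cox4i2 (255 and 194 CPM) together exceed that gap. The rank of mural cells thus rests on these isoforms and not on the members in general. The direction of such small ratios depended on the scaling. With TMM factors the log2 ratio was 0.06 in stromal and 0.01 in mural cells, and with Gm42418 and AY036118 taken out of the totals it was 0.07 in stromal, 0.14 in macrophage, 0.00038 in endothelial and 0.07 in mural cells.

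The smaller classes spread further. Lymphatic endothelial cells went from 1.700% to 1.33% (log2 ratio -0.35) and T or NK cells from 1.75% to 1.53% (-0.19). Dendritic cells went from 1.59% to 1.68% (0.08). Neutrophils, which rely mainly on glycolysis, had the lowest share of the 8 classes, 0.625% in WT and 0.838% in F592A (log2 ratio 0.42). Their cells were shallow, with a median of 2474 and 3067 UMIs, and the summed level of their 7 defining markers was 80502 CPM in WT and 147404 CPM in F592A. The part of that gap in the neutrophil value was not tested.

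**Figure D1:**
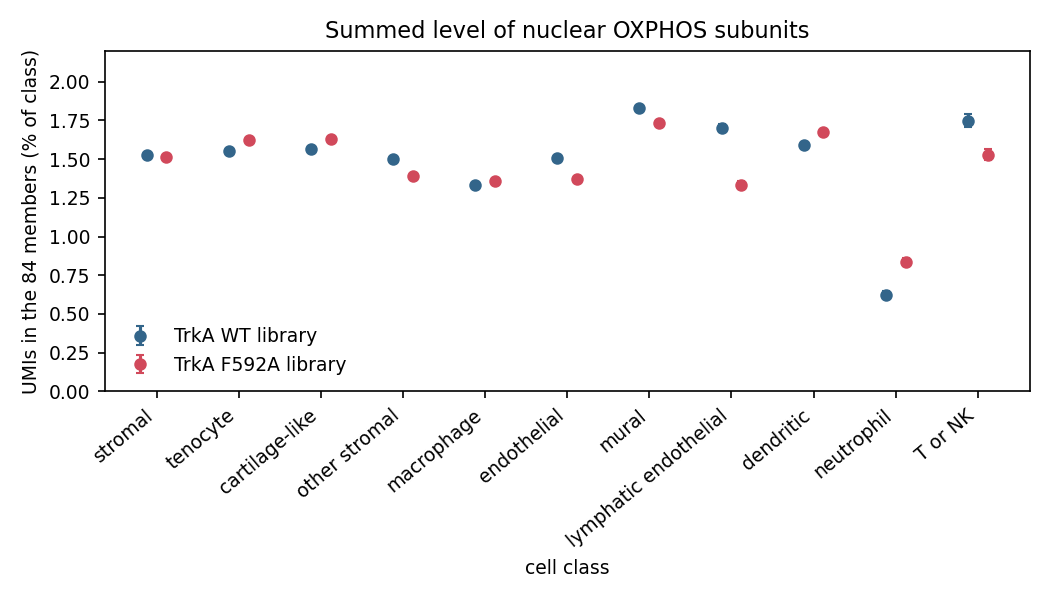
Share of UMIs that fell in the 84 members (y axis, percent of all UMIs of the class) for each cell class and library, with exact 95% counting intervals; tenocyte, cartilage-like and other stromal are divisions of the stromal class. Stromal cells and macrophages sat at 1.33 to 1.53% in both libraries, neutrophils were lowest at 0.625 and 0.838%, and mural cells were highest of the 8 classes at 1.83 and 1.73%.

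Within the stable total, single subunits moved in opposite directions. In stromal cells 81 members were measured (at least 100 UMIs over both libraries) and 77 reached 20 CPM in the higher library. A gene is counted below as higher where F592A was 25% or more above WT, and as lower where it was 20% or more below, which are equal steps on the log scale. Of these 77, 17 were higher and 25 lower by this measure, while 35 lay between. Over all 5450 genes that reached 20 CPM, 4.81% were higher and 18.6% lower. At 1.5-fold, 8 members were higher and 1, Ndufa4l2, was lower, where 1.82% and 1.71% of all genes were. The median log2 ratio of the measured members was -0.14, against -0.07 for all measured genes. With Gm42418 and AY036118 out of the totals, the counts became 20 higher and 18 lower, and with TMM factors 20 higher and 19 lower. That removal raised the median log2 ratio of all genes by 0.08 in stromal cells, 0.12 in macrophages, 0.14 in endothelial cells and 0.15 in mural cells. Any such scaling adds the same amount to every gene of a class and leaves the order of the members as it is.

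Complex I is the entry point for electrons from NADH, and its core is a chain of flavin and iron-sulfur proteins. The summed complex I level in stromal cells was 5175 and 4909 CPM (log2 ratio -0.08, but 0.005 with Gm42418 and AY036118 out of the totals). This sum is by name and includes Ndufa4 and Ndufa4l2, of which Ndufa4l2 had the lowest log2 ratio of the 37 (-0.82). The fall of Ndufa4l2, with levels given further below, made up most of the fall of the sum. A sum without these genes was not made. The 6 nuclear-encoded core subunits described here were all lower in F592A. Ndufs8, an iron-sulfur subunit, went from 76.4 to 54.4 CPM (log2 ratio -0.49). Ndufs7 (-0.46), Ndufs3 (-0.45), Ndufv1 (-0.43), which binds NADH and flavin, and Ndufv2 (-0.41) followed, and Ndufs1 was nearest to 0 (24.1 to 20.7 CPM, -0.22). The 30 members counted as accessory, Ndufa4 (between) and Ndufa4l2 (lower) among them, divided evenly, with 8 higher, 8 lower and 14 between. Ndufa3, a small membrane-arm subunit, went from 56.9 to 99.3 CPM (0.80, interval 0.76 to 0.84). Ndufa1, needed for assembly of the membrane arm, went from 99.02 to 157 CPM (0.67). Ndufa5 (71.3 to 107 CPM, 0.59) and Ndufa2 (179 to 257 CPM, 0.52) were also higher. The core subunits and these accessory subunits, which end up in the same enzyme, thus lay on opposite sides of 0. Ndufa8, an accessory subunit of the intermembrane side, was on the low side at 147 and 107 CPM (-0.46).

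Complex II links the citric acid cycle to the chain and is the only complex encoded wholly in the nucleus. All 4 of its genes were lower in F592A stromal cells, and the summed level went from 258 to 206 CPM (log2 ratio -0.32, interval -0.34 to -0.30, and -0.24 with Gm42418 and AY036118 out of the totals). Sdhd, a membrane anchor, went from 79.6 to 57.0 CPM (-0.48), and Sdhb, the iron-sulfur subunit, from 77.0 to 58.0 CPM (-0.41). Sdhc, the other anchor, was at 50.1 and 45.1 CPM (-0.15). Sdha, the flavoprotein that oxidises succinate, was at 50.9 and 46.3 CPM (-0.14). Sdhb and Sdhd were thus more than 20% lower, and Sdha and Sdhc were not.

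Complex III passes electrons to cytochrome c. Its summed level was higher in F592A stromal cells, 1344 and 1480 CPM (log2 ratio 0.14, interval 0.13 to 0.15), and higher under each of the 4 other scalings. Only 1 of these lowers the ratios, the totals without mitochondrially encoded genes (0.13), so the others could not change the sign. The small subunits Uqcr11 (113 to 168 CPM, 0.57) and Uqcr10 (157 to 221 CPM, 0.49) were higher, whereas Uqcrfs1, the Rieske iron-sulfur protein at the catalytic centre, went from 68.8 to 52.0 CPM (-0.40). The core proteins Uqcrc2 (-0.35) and Uqcrc1 (-0.24) were also lower. Of its 8 genes 5 were above 0, and the 3 below 0 were these larger proteins.

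Complex IV reduces oxygen, with its catalytic centre in mitochondrially encoded proteins and its nuclear subunits around them. The summed level was 3801 and 4035 CPM (log2 ratio 0.09) and was higher in F592A stromal cells under each scaling. Of these only the totals without mitochondrially encoded genes lower the ratio (0.08), and the others could not change its sign. Cox7c, a small membrane subunit, went from 330 to 524 CPM (0.67, interval 0.65 to 0.68), and Cox6c from 570 to 757 CPM (0.41). Cox7b was at 181 and 217 CPM (0.26), Cox7a2 at 191 and 218 CPM (0.19), and Cox8a at 435 and 474 CPM (0.12). Cox5a went the other way, from 235 to 174 CPM (-0.43), as did Cox4i1, the common form of subunit 4, from 911 to 728 CPM (-0.32). Cox6a1 (0.09) and Cox6b1 (0.10) were near 0.

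ATP synthase was divided evenly in stromal cells, with 5 of its 17 genes higher and 5 lower. The highest were its smallest proteins. Atp5k, the e subunit of the membrane part, which helps ATP synthase to form dimers, went from 89.8 to 158 CPM (log2 ratio 0.81, interval 0.78 to 0.85). Atp5md went from 98.3 to 171 CPM (0.80) and Atp5mpl from 92.7 to 148 CPM (0.68), both small proteins of the membrane part. Atp5e, the epsilon subunit of the central stalk, went from 403 to 611 CPM (0.60). Its neighbour in the same stalk, the delta subunit Atp5d, went from 375 to 266 CPM (-0.49, interval -0.51 to -0.47). The catalytic Atp5b was at 361 and 289 CPM (-0.32), and its partner Atp5a1 at 240 and 206 CPM (-0.22). The summed level was 4698 and 4522 CPM (-0.05, and 0.02 with TMM factors).

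**Figure D2:**
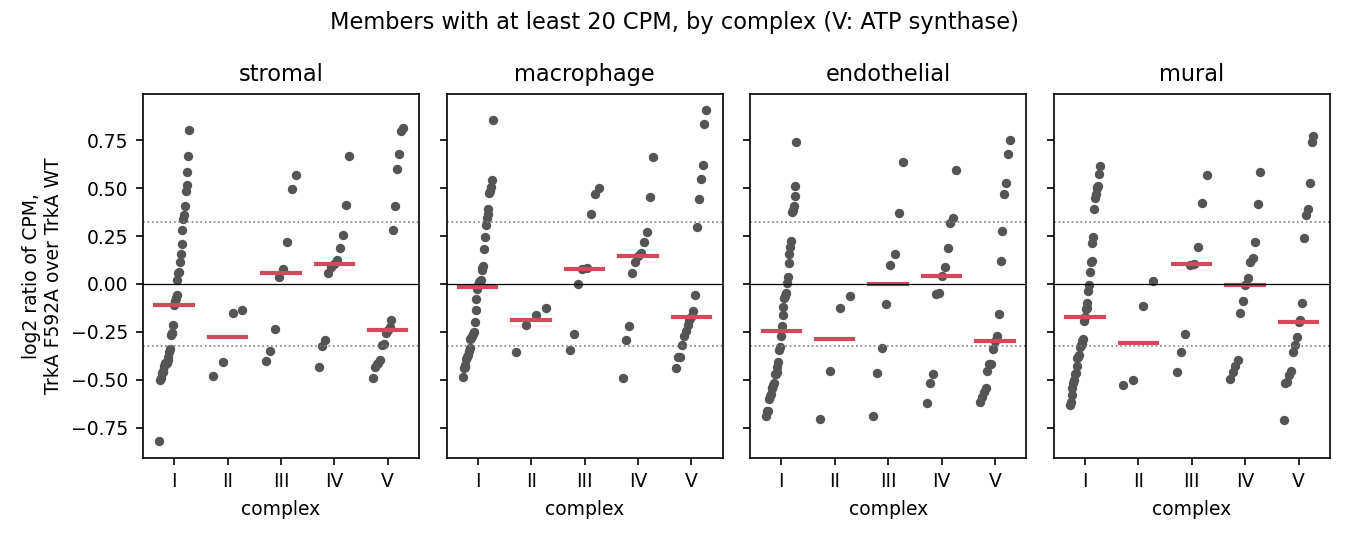
Log2 ratio of CPM, F592A over WT (y axis), for each member that reached 20 CPM, by complex (x axis, V is ATP synthase) in the 4 main classes. Points are genes in rank order within a complex, red bars are medians over those genes, dotted lines mark 25% higher and 20% lower; genes of complexes I, III, IV and V lie on both sides of 0 in each class, while in complex II only 1 gene in mural cells lies above 0.

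In the 3 other main classes most members kept their direction, with other totals, but their order was not the same. The lowest member at 20 CPM was Ndufa4l2 in stromal cells, Cox7a2l in macrophages, Sdhb in endothelial cells and Atp5o in mural cells. In macrophages 76 members reached 20 CPM, of which 18 were higher and 15 lower (5.11% and 15.8% of all genes). In endothelial cells 14 of 76 were higher and 33 lower (8.4% and 25.9% of all genes), and in mural cells 17 of 79 were higher and 27 lower (11.3% and 27.6% of all genes). At 1.5-fold the counts were 5 and 0 in macrophages (1.52% and 2.11% of all genes), 5 and 10 in endothelial cells (2.04% and 7.65%) and 3 and 3 in mural cells (3.71% and 8%). With Gm42418 and AY036118 out of the totals these became 23 and 2 in macrophages, 19 and 23 in endothelial cells, and 22 and 14 in mural cells. With TMM factors they were 22 and 6 in macrophages and 19 and 20 in mural cells. With median-of-ratios factors they were 21 and 6 in macrophages, and 19 and 24 in endothelial cells. The shares of all genes given above are for the plain totals. They were not recomputed under these scalings, which shift all genes of a class alike, so the rescaled counts cannot be set against them. The 10 catalytic subunits (those of complex I, with Uqcrfs1, Atp5a1 and Atp5b) had medians of -0.42 in stromal cells, -0.29 in macrophages, -0.54 in endothelial cells and -0.35 in mural cells. All 10 were below 0 in the first 3 classes, under each scaling tried. In mural cells 9 of the 10 were, with Ndufs1 at 26.9 and 28.1 CPM (0.06, interval -0.24 to 0.37).

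Of the 76 members with at least 20 CPM in all 4 main classes, 25 were higher in F592A in all 4, 36 were lower in all 4 and 15 were mixed. The same sign count was not made over all genes. Their median log2 ratio was negative in each class, at -0.07 in stromal, -0.08 in macrophage, -0.10 in endothelial and -0.09 in mural cells. Most members moved alike across classes, with a median gap of 0.19 between the highest and the lowest log2 ratio of a member. The widest gap was 0.62, for Ndufa4. All classes come from the same 2 libraries, so this likeness is not a replicate of the genotype difference. By the measure of 25% higher or 20% lower, met in all 4 classes, 14 members were higher and 11 lower, where 2.02% and 9.68% of the 3565 genes at that level were so placed. The 14 higher were Atp5e, Atp5k, Atp5md, Atp5mpl, Cox6c, Cox7c, Ndufa1, Ndufa2, Ndufa3, Ndufa5, Ndufb2, Ndufc1, Uqcr10 and Uqcr11. The 11 lower were Atp5d, Atp5f1, Atp5g2, Ndufa8, Ndufa9, Ndufb5, Ndufb8, Ndufs7, Ndufv1, Sdhd and Uqcrfs1. Under the other scalings all 14 higher members stayed on the list. That was largely fixed by the direction of the scalings. TMM factors, median-of-ratios factors and the removal of Gm42418 and AY036118 raised all log2 ratios of a class by 0.06 to 0.15. Under these a higher member could not leave the list and a lower member could only drop out. Taking mitochondrially encoded genes out of the totals shifted the ratios by only -0.01 to -0.02. Of the 11 lower members 3 did so with TMM factors and 1, Ndufa8, with Gm42418 and AY036118 out of the totals. How many of all genes would stay under these scalings was not counted.

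**Figure D3:**
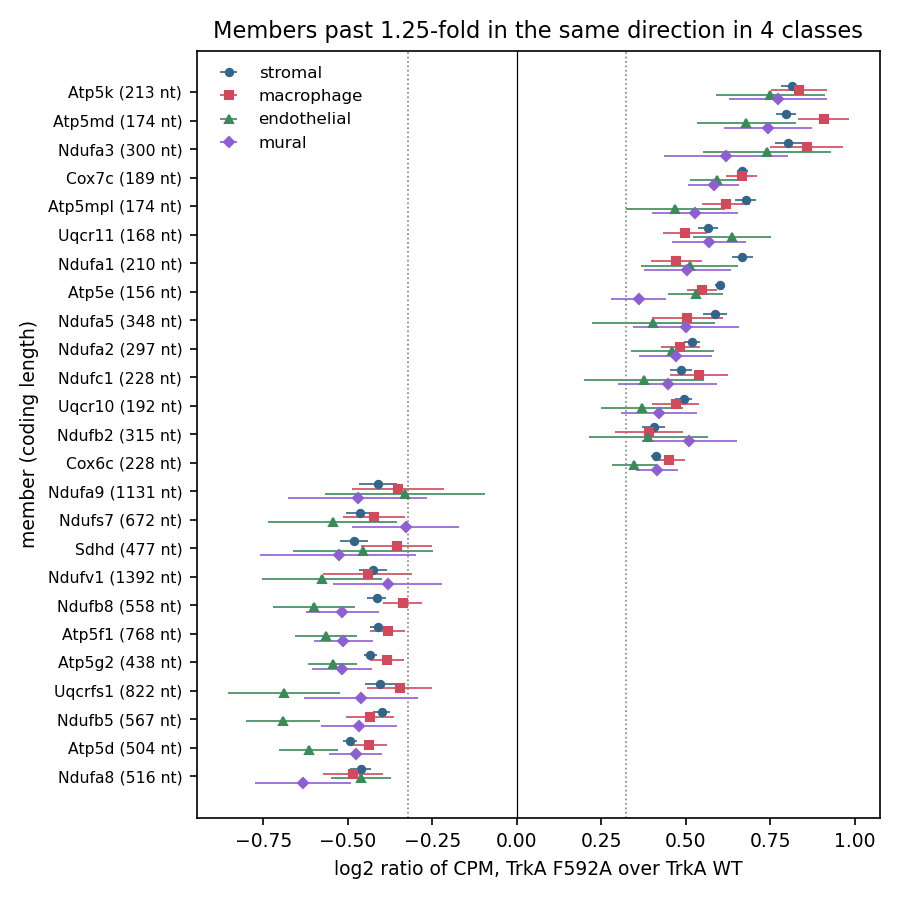
The 25 members that were at least 25% higher or at least 20% lower in F592A in each of stromal, macrophage, endothelial and mural cells. The x axis is the log2 ratio of CPM, F592A over WT, with exact 95% counting intervals, dotted lines mark 25% higher and 20% lower, and coding length stands beside each name; the 14 higher members have coding lengths of 156 to 348 nt and the 11 lower members 438 to 1392 nt.

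The DNA before the start site is printed here for 2 members from the high side (Atp5k and Ndufa5) and 2 from the low side (Sdhd and Ndufa8), chosen after their values were seen because all 4 hold the NRF1-type motif. NRF1 and GABP are transcription factors known to act on nuclear respiratory chain genes. The capitals mark matches, on either strand, to the NRF1-type motif (GCGCA, any base, GCGC) or the GABP-type motif (CCGGAAG). Each run is the 150 bases before a RefSeq start site on GRCm38.p6, read 5′ to 3′ on the gene's own strand, which is the minus strand for all 4. The regions are chr5:108434400-108434549 for Atp5k, chr6:24527691-24527840 for Ndufa5, chr9:50603850-50603999 for Sdhd and chr2:36049339-36049488 for Ndufa8. The GENCODE gene annotation places some starts further upstream. By its positions the Ndufa5 run lies inside the gene (chr6:24518666-24528013), and the Atp5k and Ndufa8 runs reach partly into theirs.
Atp5k: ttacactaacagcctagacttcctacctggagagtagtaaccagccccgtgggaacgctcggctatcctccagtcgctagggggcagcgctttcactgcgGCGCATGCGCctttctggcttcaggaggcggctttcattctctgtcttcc
Ndufa5: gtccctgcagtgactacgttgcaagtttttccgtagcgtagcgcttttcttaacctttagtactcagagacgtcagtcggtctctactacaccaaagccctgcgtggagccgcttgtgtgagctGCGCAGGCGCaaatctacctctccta
Sdhd: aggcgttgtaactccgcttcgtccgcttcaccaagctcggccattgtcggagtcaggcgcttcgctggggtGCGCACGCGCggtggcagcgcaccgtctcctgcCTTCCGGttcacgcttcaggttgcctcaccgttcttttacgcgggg
Ndufa8: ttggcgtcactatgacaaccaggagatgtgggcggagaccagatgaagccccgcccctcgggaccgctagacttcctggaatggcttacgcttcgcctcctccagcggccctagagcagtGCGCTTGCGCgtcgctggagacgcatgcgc

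The RefSeq table held windows from 250 bases before to 50 bases after the start for 67 of the 84 members (72 windows). The NRF1-type motif, searched on both strands, was in 18 of these 72 windows (25%) and in 4.60% of all 32851 windows in the table. The GABP-type motif was in 17 of 72 (23.6%) and in 8.86% of all windows. The YY1-type motif AAGATGGCG was in 7 of 72 (9.72%) and in 1.40% of all windows. Among the 25 members named above, the NRF1-type motif was in 2 of 11 higher and 3 of 10 lower members with a window. The GABP-type motif was in 4 of those 11 (Atp5e, Atp5k, Atp5md and Uqcr11) and in 1 of those 10 (Sdhd), and the YY1-type motif in 1 of 11 and 2 of 10. A match is a description of these letters and not a binding site.

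Coding length separated the members that were higher from those that were lower. Coding lengths were taken as the longest coding sequence of a gene, without the stop codon. In stromal cells 20 of the 21 members with at most 300 nt were above 0 and 13 were higher by at least 25%, with a median log2 ratio of 0.48. The 24 members of over 300 and up to 450 nt had a median of 0.04. All 12 of over 450 and up to 600 nt were below 0, with a median of -0.37, and of the 20 longer ones 19 were, with a median of -0.41. Ndufv3, at 104 and 127 CPM (0.28), was the exception among the longest. Its place there rests on its longest coding sequence, of 1404 nt, while the median length of its protein-coding transcripts was 645 nt. The exception among the shortest was Ndufa4l2. Spearman's rho between coding length and log2 ratio was -0.73 over 77 members in stromal cells, -0.75 over 76 in macrophages, -0.76 over 76 in endothelial cells and -0.68 over 79 in mural cells. These are descriptions across genes that share their 2 libraries.

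The cytosolic ribosomal proteins shared this pattern, while genes as a whole ran the other way. Over all genes that reached 20 CPM and had a coding length, rho was 0.38 in stromal cells (5393 genes), 0.30 in macrophages, 0.40 in endothelial cells and 0.41 in mural cells. Over 79 cytosolic ribosomal proteins, a highly expressed family of other function, rho was -0.87 in stromal cells, and all 10 with at most 300 nt were higher by at least 25%, with a median of 0.92. Among the 13 mitochondrially encoded subunits, the 3 with the shortest coding sequences were higher. mt-Nd3 was at 446 and 892 CPM (log2 ratio 1.00), mt-Nd4l at 139 and 257 CPM (0.89), and mt-Atp8 at 79.8 and 142 CPM (0.83) in stromal cells. mt-Nd6 was higher too, at 27.8 and 43.5 CPM (0.64), and mt-Nd5, the longest, was at 373 and 402 CPM (0.11). The other 8 were below 0, from mt-Nd2 at 2264 and 2139 CPM (-0.08) to mt-Cytb at 5708 and 4405 CPM (-0.37). The 13 mitochondrially encoded subunits together went from 4.95% to 4.24% of stromal UMIs (-0.22). Outside the members and ribosomal proteins, the 135 genes with at most 300 nt had a median of -0.15 and the 4315 of over 600 nt a median of -0.08. Of the short ones 19.3% were higher by at least 25% and 27.4% lower by at least 20%, against 3.57% and 14.4% of the long ones. Over the 61 mitochondrial ribosomal proteins rho was -0.23. What part of the difference between short and long members belongs to the libraries rather than to the genotype was not tested.

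**Figure D4:**
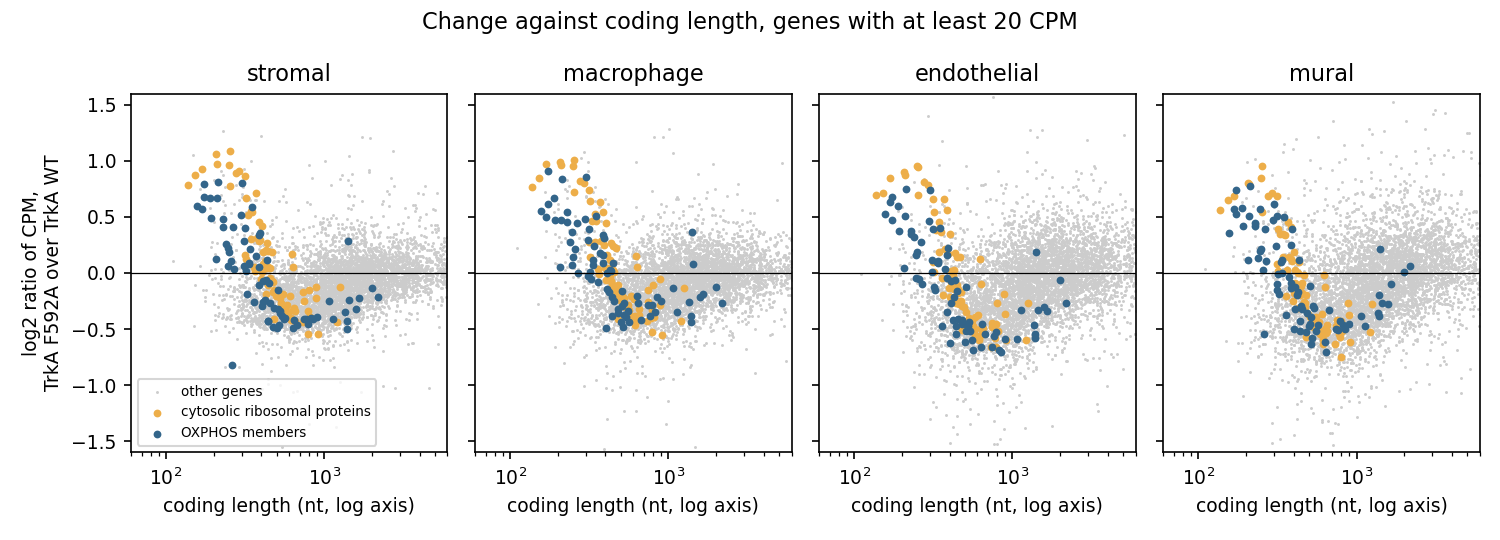
Log2 ratio of CPM, F592A over WT (y axis), against coding length in nt (x axis, log scale) for genes that reached 20 CPM, by main class, with OXPHOS members in blue, cytosolic ribosomal proteins in yellow and all other genes in grey (points beyond the axes are not drawn). In each class both families descend from short to long coding sequences, and the 10 ribosomal proteins of at most 300 nt lie above 0.

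Ndufa4l2 broke the length pattern and was the lowest of the 77 members in stromal cells. It encodes a relative of Ndufa4 that is induced in low oxygen and is known to restrain respiration. The gene lies on chr10:127514967-127517154 (GRCm38, plus strand). In stromal cells it was at 421 and 238 CPM, from 64982 and 29059 UMIs (log2 ratio -0.82, interval -0.84 to -0.80), while Ndufa4 was at 248.9 and 260 CPM (0.06). Within the stromal class it was highest in cartilage-like cells, at 779 and 409 CPM (-0.93). Tenocytes had 487 and 276 CPM (-0.82) and the other stromal cells 281 and 160 CPM (-0.81), so all divisions were lower in F592A by a similar ratio. Mural cells held 761 and 522 CPM (-0.54). In macrophages it was at 7.24 and 2.81 CPM and in endothelial cells at 7.86 and 4.69 CPM. The 8 stromal markers together were at 942 and 747 CPM in macrophages and at 837 and 717 CPM in endothelial cells. The part of free RNA in droplets in these low Ndufa4l2 values was not tested. The direction of Ndufa4l2 in stromal and mural cells was the same under every alternative tried. The cartilage-like cells were gated before tenocytes, by at least 3 of 7 cartilage markers, which together were at 1848 and 1869 CPM (760 and 699 CPM in tenocytes). Their tenocyte markers were at 11849.1 and 11944.5 CPM, above the 10219.5 and 11255.7 CPM of the tenocyte division. The name thus does not mean that these cells lack a tenocyte profile.

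Mural cells had exchanged Ndufa4 for Ndufa4l2 in both libraries. Ndufa4 was at 39.3 and 58.5 CPM in mural cells, and at 246 to 287 CPM in WT and 258 to 278 CPM in F592A in the other 3 main classes. Of the UMIs of the pair, Ndufa4l2 took 95.1% (interval 94.5 to 95.7%) in WT and 89.9% (89.0 to 90.8%) in F592A mural cells. The share was 62.9% and 47.9% in stromal cells, 2.86% and 1.08% in macrophages, and 2.67% and 1.66% in endothelial cells. The order of mural, stromal and other cells was thus the same in both libraries, while in mural and stromal cells the share was lower in F592A by more than counting error.

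Cox4i2 marked the same vessel-wall cells. It is the oxygen-responsive form of complex IV subunit 4, and lies on chr2:152754173-152765037 (GRCm38, plus strand). In mural cells it was at 255 and 194 CPM (log2 ratio -0.40), and at 0.463 to 1.08 CPM in macrophages and endothelial cells. Its share of the subunit 4 pair in mural cells was 18.5% (17.7 to 19.4%) in WT and 19.2% (18.3 to 20.1%) in F592A, so the intervals overlapped. In stromal cells it was at 7.28 and 2.79 CPM (-1.39), a share of 0.793% and 0.381%. The 9 mural markers together were at 84.5 and 84.4 CPM in stromal cells, with none at 0, while the 6 smooth muscle markers were at 1060 and 657 CPM, with none at 0. The part of smooth muscle transcripts in the stromal Cox4i2 value was not tested. Within the stromal class, cartilage-like cells had the highest Cox4i2 share, 2.104% and 1.20%.

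**Figure D5:**
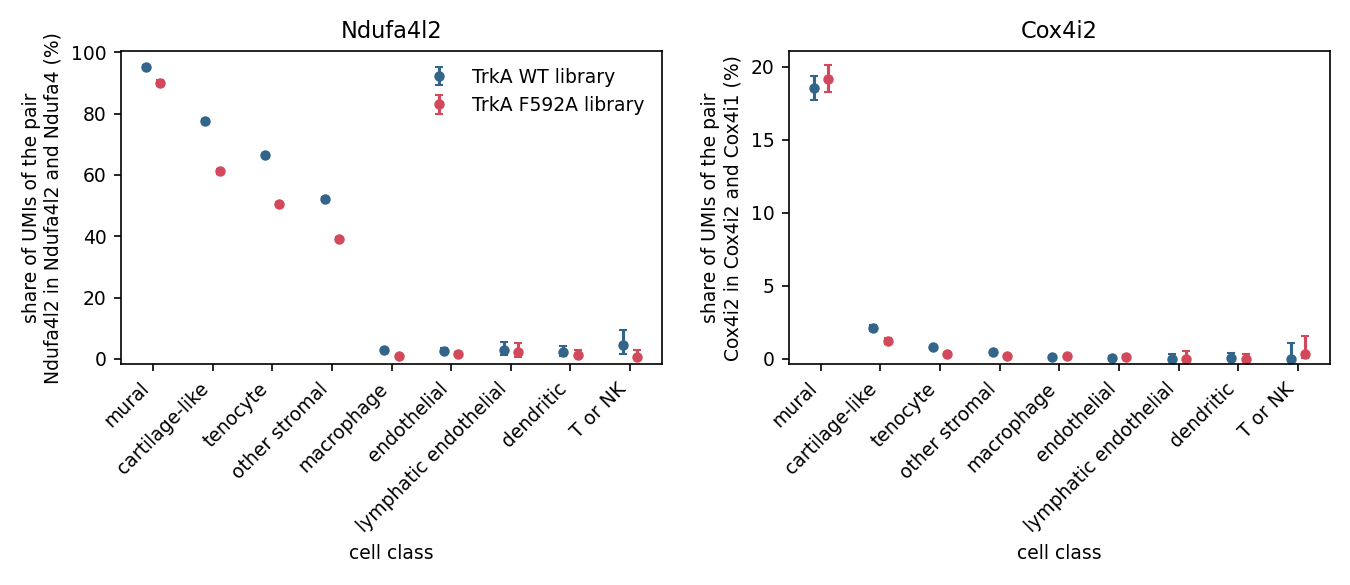
Share of the UMIs of an isoform pair (y axis, percent) taken by Ndufa4l2 (left) and Cox4i2 (right), by cell class and library, with exact 95% binomial intervals; neutrophils are left out for their low counts. Ndufa4l2 took 95.1 and 89.9% of its pair in mural cells and Cox4i2 18.5 and 19.2%, with both at low shares in macrophages and endothelial cells.

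The complex IV isoforms known from muscle were below 20 CPM in every class. Cox8b, the heart and skeletal muscle form of subunit 8, was at 1.46 and 6.38 CPM in stromal cells (225 and 778 UMIs), a log2 ratio of 2.13 (interval 1.91 to 2.35) and a share of 0.334% and 1.33% of the Cox8 pair. Cartilage-like cells had 3.27 and 11.1 CPM, tenocytes 2.32 and 9.89 CPM and other stromal cells 0.361 and 2.03 CPM, so all 3 divisions were higher in F592A. Skeletal muscle markers were low in stromal cells, at 4.08 and 6.15 CPM for 6 genes together. Of these Acta1 moved with Cox8b at 0.220 and 1.35 CPM, whereas Tnnt3 was at 1.92 and 1.90 CPM, Mylpf at 1.83 and 2.17 CPM, and Myh4 had 0 and 2 UMIs. The part of muscle RNA in the Cox8b value was not tested.

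Other tissue-restricted forms differed by class. Cox6b2, known from testis, was at 27.0 and 30.1 CPM in dendritic cells and 24.3 and 21.9 CPM in mural cells, or 6.75% and 6.16%, and 7.02% and 6.25%, of the Cox6b pair. In stromal cells it took 1.57% and 0.927%. Cox7a1, the heart and muscle form of subunit 7a, took 2.25% and 2.49% of its pair with Cox7a2 in macrophages and 2.17% and 2.80% in mural cells, against 0.196% and 0.184% in stromal cells. Cox6a2 had 18 and 20 UMIs in stromal cells and 63 and 50 in macrophages. Cox7b2 and Cox8c were the other members below 100 UMIs in stromal cells, at 0.0324 and 0.0492 CPM for Cox7b2 and at most 0.0246 CPM for Cox8c. The 3 genes for the c subunit of ATP synthase, which encode the same mature protein, divided differently by class. Atp5g2 took 41.3% and 38.3% of their UMIs in stromal cells and 53.5% and 50.04% in endothelial cells, and Atp5g1 37.0% and 38.7% and 22.5% and 25.5%.

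Ndufa8, Ndufa6 and Ndufa13 were each highest in the same class in both libraries, as were many other members. Ndufa8 (2.69 and 2.92) and Ndufa6 (2.18 and 2.30) passed 2-fold over the median of the other classes in both libraries, and Ndufa13 (1.86 and 1.99) did not. Atp5md also passed it, in the small T or NK class (2.01 and 2.12), as did some of the isoforms described above. Ndufa8 was at 326 and 237 CPM in endothelial cells and at 147 and 107 CPM in stromal cells, 107 and 76.3 CPM in macrophages and 153 and 98.4 CPM in mural cells. Its ratio in endothelial cells (-0.46) was that of the stromal cells (-0.46), so the gap between the classes was as wide in both libraries. Cox7a2l, which holds complexes III and IV together in supercomplexes, was highest in endothelial cells in WT and in dendritic cells in F592A, at 546 and 354 CPM in the first and 504 and 384 CPM in the second, with 245 and 200 CPM in stromal cells. Ndufa6, an accessory subunit of complex I, was at 287 and 376 CPM in dendritic cells, against 95.3 and 122 CPM in stromal and 132 and 163 CPM in macrophage cells. Ndufa13, also known as GRIM-19, was at 391 and 423 CPM in stromal cells, and at 157 and 150 CPM in endothelial cells. Because the groups of cells were gated by other genes, these levels did not enter the choice of cells.

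Divisions of the stromal class differed in their totals. In tenocytes (2232 and 1767 cells) the members went from 1.56% to 1.62% of UMIs (log2 ratio 0.06) and in cartilage-like cells (707 and 439 cells) from 1.56% to 1.63% (0.06). In the other stromal cells (3574 and 2499 cells) they went from 1.50% to 1.39% (-0.11), and the intervals of these 3 ratios exclude 0. These ratios are on plain totals, and values under other scalings were not computed for the divisions. TMM factors of the other stromal cells were 1.04 in WT and 0.958 in F592A. Dividing by these factors would raise their ratio past 0, so its sign depends on the scaling. In tenocytes 21 of 77 members were higher and 15 lower, where 4.89% and 12.9% of all genes were. In cartilage-like cells 21 of 77 were higher and 12 lower (7.23% and 10.8% of all genes). In the other stromal cells 14 of 77 were higher and 31 lower (6.24% and 28% of all genes). Atp5k, Atp5md and Ndufa3 had the 3 highest log2 ratios in each division among members that reached 20 CPM, and Ndufa4l2 the lowest. Atp5md was at 0.90 in tenocytes, 0.97 in cartilage-like and 0.63 in other stromal cells, and Ndufa3 at 0.85, 0.97 and 0.72. A difference of totals between the divisions was not tested, as each has 1 library per genotype.

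Cycling cells, known for raised biosynthesis, had a higher summed level in both libraries. Stromal cells with at least 2 cycling markers held 1.76% in WT and 1.85% in F592A, against 1.51% and 1.50% in the rest. In macrophages the shares were 1.85% and 1.93% in cycling cells against 1.30% and 1.33%, and in mural cells 2.19% and 2.25% against 1.78% and 1.700%. With cycling cells left out, the log2 ratio of the total was -0.0051 in stromal cells, against -0.012 with them, and -0.066 in mural cells, against -0.081. Per cell, the middle 80% of stromal cells ranged from 1.05 to 1.98% in WT and from 0.919 to 1.98% in F592A.

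Among lists of genes that work with the subunits, 4 of the 5 described here had medians below that of all genes (-0.07) in stromal cells, where 4.81% of all genes were higher and 18.6% lower. Of 42 assembly factors, which build the complexes, 15 reached 20 CPM, with 1 higher and 5 lower (median of all measured -0.16). Of 16 citric acid cycle genes, none was higher and 5 were lower (median -0.19), among them Idh2 at 74.3 and 54.5 CPM (-0.45) and Mdh2 at 147 and 112 CPM (-0.39). Of 61 mitochondrial ribosomal proteins at 20 CPM, 2 were higher and 35 lower (median of all 78 -0.32). The transcription factors and coactivators of mitochondrial biogenesis had a median of 0.06 over 13 genes. Nrf1 was at 13.1 and 13.0 CPM and Gabpa at 19.9 and 21.1 CPM, so the transcripts of these motif-binding factors were near equal. The glycolysis list stood lowest, with 12 of 13 genes at 20 CPM lower (median of the 14 measured genes -0.48). Gapdh was at 1037 and 681 CPM (-0.61), Pgk1 at 217 and 149 CPM (-0.54) and Ldha at 405 and 296 CPM (-0.45), while Hk2, which commits glucose to the pathway, was at 99.4 and 170 CPM (0.77). In mural cells 2 of 14 glycolysis genes were lower and 1 higher (median -0.15), where 27.6% and 11.3% of all genes were.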

How the data were processed

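Droplet single-cell RNA libraries (10x Genomics) were made from digested injured tendon. The deposited matrices hold UMI counts, made by the authors with Cell Ranger: the file header gives version 6.0.1, the submitters' processing notes give 2.1.1 with mm10. Per the labels' protocols, cDNA was size-selected in both libraries, and fragment lengths were not analysed here.

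The cell filter asked for 500 genes or more, 1000 UMIs or more and a mitochondrial share of 15% or less. It passed 11599 WT and 8664 F592A barcodes, from which doublets called by Scrublet (342 and 220) were removed. Kept cells held 205440446 and 170375806 UMIs. Cells were gated by counts of marker genes, each with at least 2 UMIs and 1 per 10000 UMIs of the cell, and 91.5% and 91.9% fell in exactly 1 class. Gate limits were set after the data were seen. For every class, the sum of UMIs of a gene was divided by the sum over all genes and scaled to CPM. Levels carry exact Poisson intervals and ratios exact conditional binomial intervals, both at 95%. The ratio step was tested on simulated data. Leiden clusters (resolution 0.8) served as an alternative (scanpy 1.11.5), and scaling factors came from edgeR 4.0.16 (TMM) and DESeq2 1.42.0 (median of ratios) on class sums, without a test. GENCODE M21 gave coding lengths and positions on GRCm38 (mm10), and RefSeq the promoters.

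Genes named were the 10 highest and 10 lowest members in stromal cells and 5 and 5 in the other main classes, catalytic subunits, Sdh genes, isoform families and pathway lists. Class-restricted members were chosen after their values were seen. Members, lists and markers were chosen with earlier results of these data known. One gene that the rule names is not reported here.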

Additional observations from a re-analysis of the deposited data

Results flagged for a closer look

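The summed level of the members moved in opposite directions in different classes, with counting intervals that exclude 0 on each side. The log2 ratio of F592A over WT was 0.42 in neutrophils, 0.078 in dendritic cells, 0.061 in tenocytes, 0.062 in cartilage-like cells and 0.025 in macrophages. It was -0.35 in lymphatic endothelial cells, -0.19 in T or NK cells, -0.14 in endothelial cells, -0.11 in other stromal cells, -0.081 in mural cells and -0.012 in all stromal cells. With 1 library per genotype the difference between classes was not tested, and the signs of the smaller values change with the scaling. Values under other scalings were not computed for the small classes or for the stromal divisions.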

How the results depend on the processing

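No paired analysis was possible because each genotype has 1 library, and leaving out a replicate was not possible for the same reason. Exclusion of Gm42418 and AY036118, and of barcodes found in both libraries, was added after the data were seen. The scaling settled the sign of the small totals. The summed log2 ratio in stromal cells was -0.012 as reported, 0.063 with TMM factors, 0.044 with median-of-ratios factors, -0.022 without mitochondrially encoded genes in the totals, 0.069 without Gm42418 and AY036118, -0.0075 at a mitochondrial share of at most 8%, -0.0051 without cycling cells, -0.0080 with Leiden clusters and -0.042 with each cell weighted equally. In macrophages the same settings gave 0.11, 0.10, 0.011, 0.14 and, at most 8%, 0.014, with 0.056 for clusters and 0.042 for equal weights. In endothelial cells they gave -0.042, -0.0050, -0.15 and 0.00038, with -0.12 for equal weights, and in mural cells 0.011, 0.017, -0.094 and 0.068, with -0.066 without cycling cells, -0.061 for clusters and -0.095 for equal weights. The median member log2 ratio became -0.060 (TMM), -0.080 (median of ratios) and -0.054 (without Gm42418 and AY036118) in stromal cells, and 0.050, 0.046, 0.090 and, with clusters, 0.011 in macrophages. It became -0.026 (median of ratios) and -0.021 (without Gm42418 and AY036118) in endothelial cells, and 0.019 (without Gm42418 and AY036118) in mural cells.

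At 1.5-fold the higher and lower members were 8 and 1 in stromal cells, 5 and 0 in macrophages, 5 and 10 in endothelial cells and 3 and 3 in mural cells. Lower members in macrophages became 6 with TMM factors, 6 with median-of-ratios factors and 2 without Gm42418 and AY036118, and in mural cells 14 without them. Over the alternatives, 606 of 792 log2 ratios of single named genes moved no further than from the counting interval's centre to its limit. The other 186 moved further, and 0 of the ratios at least 25% higher or 20% lower changed sign. Sign changes were counted among those larger ratios only. For the scalings this 0 was fixed in advance, as they shifted ratios by at most 0.15, less than any ratio of that size. Depth limits the small classes and the rare isoforms, and the absence of replicate libraries limits every difference between genotypes.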
